A study of Mus musculus with 4 samples.

Results

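Annotated microRNA hairpins matched a small and mixed part of the sequences listed after MILI immunoprecipitation from the 14-day mouse testis. They were found by exact, sense match of each listed sequence to a transcript of a GENCODE M21 gene of type miRNA. The match gave 1259 of 4906138 distinct sequences (0.0257%, exact Clopper-Pearson 95% interval 0.0243–0.0271%), from 304 of 2202 annotated hairpins (13.8%, 12.4–15.3%). Hairpins that lay in a 20 kb window (mm9) with 1000 or more listed sequences, here called dense windows, were kept apart, because such windows may be piRNA clusters. There were 31 hairpins with 340 sequences in dense windows and 273 hairpins with 919 sequences outside them. The study made 4 libraries of RNA immunoprecipitated with Mili from testes of C57BL/6 mice at 14 dpp, 2 from Tdrd9+/- and 2 from Tdrd9-/- animals. None of the 4 is an input or a mock precipitation, so RNA bound by MILI cannot be told apart from background. RNA was eluted from a gel at about 28 to 30 nt, which is longer than a mature microRNA. The table holds each sequence once, with a position and no read count or library, so depth is unknown, genotypes were not compared, and an abundant and a rare sequence count alike. All shares below are shares of distinct sequences, and their intervals cover counting error only, since overlapping sequences of a hairpin are not independent.

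MicroRNAs are cut from hairpin precursors by Drosha and Dicer and loaded onto Argonaute proteins. The product of the 5′ side of the hairpin is called 5p and that of the 3′ side 3p, and the seed, bases 2 to 8 of the mature microRNA, leads target choice. piRNAs are longer, are made without Dicer from long single-stranded precursors, and are bound by PIWI proteins such as MILI, usually with a U at the first base. An annotated hairpin can therefore hold a microRNA, or can be an address inside a longer RNA that gives piRNAs.

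The sequences outside dense windows turn on mature microRNAs and their 3′ ends, so the mature sequences are shown first, from RefSeq (GRCm38.p6 table), 5′ to 3′, with the seed in capitals. The first 4 share the let-7 seed, the next 3 the seed of the miR-17 family, and the next 2 that of the miR-30 family.
mmu-let-7a-5p: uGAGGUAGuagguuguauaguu
mmu-let-7b-5p: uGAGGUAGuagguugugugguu
mmu-let-7d-5p: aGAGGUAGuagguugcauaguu
mmu-let-7e-5p: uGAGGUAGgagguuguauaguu
mmu-miR-17-5p: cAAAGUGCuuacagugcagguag
mmu-miR-106b-5p: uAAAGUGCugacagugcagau
mmu-miR-93-5p: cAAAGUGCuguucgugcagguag
mmu-miR-30a-5p: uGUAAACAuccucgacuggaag
mmu-miR-30e-5p: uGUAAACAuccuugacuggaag
mmu-miR-423-5p: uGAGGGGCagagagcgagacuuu
mmu-miR-470-5p: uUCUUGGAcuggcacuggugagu
mmu-miR-7210-5p: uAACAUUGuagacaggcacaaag

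The longest listed sequence of at most 30 nt that began at the first base of each of these is shown next, from the deposited table (mm9, DNA letters, 5′ to 3′). Capitals mark the bases past the 3′ end of the mature microRNA.
Mirlet7a-1 (chr13:48633602-48633629, minus): tgaggtagtaggttgtatagttTTAGGG
Mirlet7b (chr15:85537755-85537779, plus): tgaggtagtaggttgtgtggttTCA
Mirlet7d (chr13:48631445-48631468, minus): agaggtagtaggttgcatagttTT
Mirlet7e (chr17:17967330-17967353, plus): tgaggtaggaggttgtatagttGA
Mir17 (chr14:115442906-115442933, plus): caaagtgcttacagtgcaggtagTGATG
Mir106b (chr5:138607007-138607035, minus): taaagtgctgacagtgcagatAGTGGTCC
Mir93 (chr5:138606798-138606824, minus): caaagtgctgttcgtgcaggtagTGTA
Mir30a (chr1:23279113-23279138, plus): tgtaaacatcctcgactggaagCTGT
Mir30e (chr4:120445260-120445286, minus): tgtaaacatccttgactggaagCTGTA
Mir423 (chr11:76891617-76891646, minus): tgaggggcagagagcgagactttTCTATTT
Mir470 (chrX:64067166-64067192, minus): ttcttggactggcactggtgagtTAAA
Mir7210 (chr14:24908099-24908128, plus): taacattgtagacaggcacaaagATCCCCT

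For hairpins whose sequences spread along the stem, the longest sequence of at most 30 nt at the 5′ end shared by most sequences is shown (the lowest coordinate where ends tied). Capitals mark base 1, where primary piRNAs carry U, and base 10, where piRNAs made by slicing carry A. All 7 begin with U (T in DNA letters), but they were picked by hand and do not stand for the rest: U began 9 of 31 sequences of Mir700, and among hairpins not shown 3 of 21 of Gm25745, 6 of 22 of Mir8094 and 4 of 18 of Mir6236.
Mir546 (chr10:126435587-126435614, plus): TagaagcaaAgtgatactggggaggaga
Mir7217 (chr17:27492686-27492714, plus): TtgtatcttGtgagacagaagggcacgcc
Mir700 (chr4:134972476-134972505, minus): TacgaactgCacgcgggaaccgagtccacc
Mir7222 (chr2:92434780-92434808, plus): TggactacaTactctgtgctgaagtgtct
Mir7214 (chr17:27453996-27454023, minus): TgagaatgtGtctccccaccctcagtcc
Mir1983 (chr13:21988838-21988864, minus): TacagcagtAtatgtgcgggtgatgcc
Gm47315 (chr11:104286507-104286536, minus): TctctgtgcTgaatggctgcgatggcgccc

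The number of sequences per hairpin was low, with a median of 2. Of the 304 hairpins, 118 had a single sequence and 29 had 10 or more. The 10 fullest held 25.02% of the 1259 sequences. Hairpins in dense windows had a median of 4 sequences and a highest value of 79, and those outside a median of 2 and a highest value of 27. The dense set was led by few hairpins, its 10 fullest holding 77.9% of 340, whereas the 10 fullest outside held 19.8% of 919. The windows just below the threshold held 956 (Mir8102), 921 (Mir7215), 901 and 900 sequences, and those just above held 1080 (Mir1905), 1088, 1096 and 1103. The choice of threshold mattered: the share of hairpin sequences in dense windows was 37.3% with 500 and 16.4% with 2000.

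**Figure D1:**
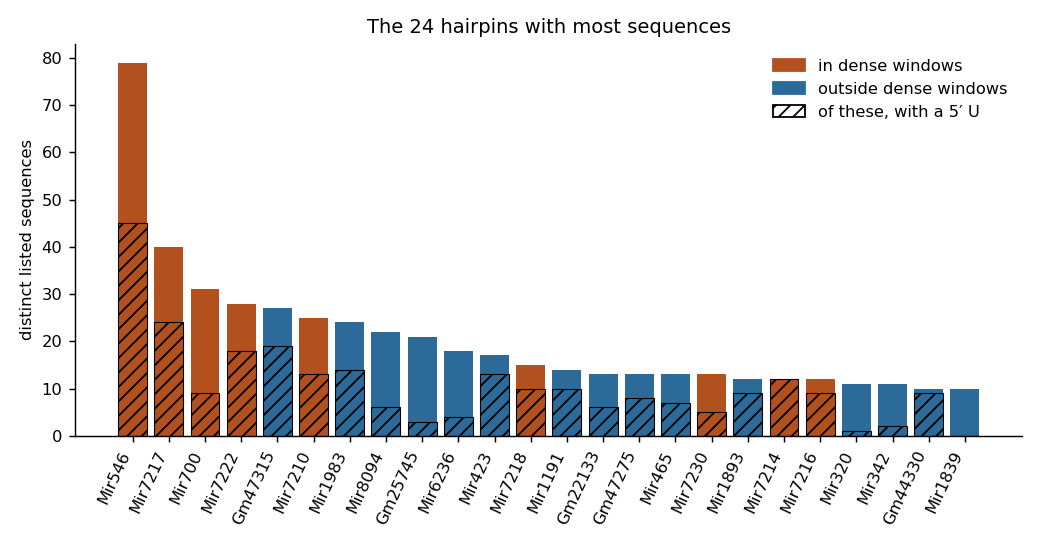
Distinct listed sequences (y axis) in the 24 hairpins with most, coloured by whether the hairpin lies in a dense window; the hatched part of each bar is the sequences that begin with U. Mir546 leads with 79 sequences, and the hatched part runs from none in Mir1839 to the whole bar in Mir7214.

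In dense windows the 3 fullest hairpins lay in exons of other genes. Mir546 (chromosome 10, 126435496–126435616, plus strand, mm9) had 79 sequences at 35 distinct 5′ ends. All 79 also matched Ctdsp2, a phosphatase gene, in whose 3′ UTR the hairpin is annotated. They covered positions 8 to 121 of its 121 nt, and 3 of the 79 began within 2 nt of the annotated miR-546, none of them exactly at it. Mir700 (chromosome 4, 134972470–134972548, minus strand) had 31 sequences, of which 30 matched Rcan3, a regulator of calcineurin, in a coding exon. None of the 31 began within 2 nt of a mature start, and 9 began with U. Mir7217 had 40 sequences and Mir7218 15, and all 55 matched the long noncoding RNA Gm49794. Of the 340 sequences in dense windows, 198 (58.2%, 52.8–63.5%) also matched a transcript of another gene in sense. That share was 45.6% (39.4–51.8%) without Mir546.

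A numbered run of hairpins, Mir7200 to Mir7249, supplied most of the rest. Of 34 such hairpins in the annotation 17 had sequences, 12 of them in dense windows with 171 sequences and 5 outside with 15. The chromosome 17 cluster held 4 of them (Mir7214, Mir7216, Mir7217 and Mir7218) with 79 sequences, and the chromosome 2 cluster held Mir7221 and Mir7222 with 38. Mir7222 (chromosome 2, 92434759–92434833, plus strand) had 28 sequences at 17 ends, with none within 2 nt of its mature starts. A further 3 listed sequences, of 25 to 28 nt, began exactly at miR-7222-3p but ran past the hairpin, which ends with that microRNA, and so were no members. Its window held 3436 sequences, 99.1% of them on the strand of the hairpin. Mir7214 (chromosome 17, 27453980–27454040, minus strand) had 12 sequences, all beginning with U, in a window of 8350. Mir7230 (chromosome 5, 113766610–113766665, minus strand) had 13, of which 6 began within 2 nt of a mature start, 3 of them exactly at miR-7230-5p, and 5 began with U. Mir7241 (chromosome 9, 67575524–67575587, minus strand) had 4 sequences at 3 ends, in a window of 5223. None of them began within 2 nt of miR-7241-5p, the only arm placed in it, so starts of a 3p arm could not count. Counting also sequences that ran past the hairpin, 22 began in Mir7241, at 11 ends, and 28 in Mir7214.

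Mir7210 had the most sequences near a mature start in the dense set, but others of the series shared the trait. Counting also sequences that ran past the hairpin, 19 of 31 in Mir7210 began within 2 nt of a mature start. On that count the values were 14 of 29 in Mir7230 and 6 of 10 in Mir7232. Mir7210 (chromosome 14, 24908099–24908152, plus strand) had 25 member sequences at 6 ends, and 18 of the 25 began within 2 nt of miR-7210-5p. The 9 that began exactly there ran through every length from 23 to 31 nt. All 25 lay within the first 34 of 54 nt, but the match left out sequences that ran past the hairpin. With those, 31 sequences began in it at 10 ends, 1 of them exactly at miR-7210-3p. Its window held 4610 sequences, 99.8% of them on the same strand. Mir7210 supplied 18 of the 43 sequences at mature starts in the dense set.

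A dense window was not always dense on the strand of the hairpin. In 23 of the 31, at least 90% of the window lay on that strand, but in 6 it held under 50%. These 6 hairpins (Mir22, Mir6977, Mir1905, Mir5100, Mir7026 and Gm44313) had 9 sequences in all. Mir6977 had 3 sequences, all starting exactly at miR-6977-5p, in a window with 6.94% of its sequences on the same strand. Mir22 had 2 sequences, 1 of them at the start of miR-22-3p.

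Outside dense windows, sequences gathered at the 5′ ends of annotated mature microRNAs. Mature sequences could be placed in 220 of the 273 hairpins, which held 704 of the 919 sequences. A hairpin counted as placed if any of its arms was found, so starts of an arm not found counted as away from mature starts. Of the 704, 407 (57.8%, 54.1–61.5%) began within 2 nt of a mature 5′ end and 323 (45.9%, 42.2–49.6%) exactly at one. Offsets of 1 nt were much rarer, with 46 sequences 1 nt downstream and 19 sequences 1 nt upstream. In dense windows the share within 2 nt was 43 of 321 (13.4%, 9.87–17.6%), and 8.45% (5.54–12.2%) without Mir7210. Counted by hairpin, 140 of 220 outside (63.6%, 56.9–70.0%) and 10 of 25 in dense windows (40.0%, 21.1–61.3%) had at least 1 sequence within 2 nt of a mature start, so the intervals overlapped when hairpins rather than sequences were counted. The match disfavoured 3p starts in dense windows, where 18 sequences began exactly at a 3p start and 17 of them ran past the end of the hairpin and were no members. Over all listed sequences that began inside a hairpin, also those running past it, 71 of 467 in dense windows (15.2%, 12.1–18.8%) and 412 of 829 outside (49.7%, 46.2–53.2%) lay within 2 nt of a mature start. Exact starts on that count were 41 of 467 (8.78%, 6.37–11.7%) and 324 of 829 (39.1%, 35.7–42.5%). Without Mir7210 the dense share within 2 nt was 52 of 436 (11.9%, 9.04–15.3%).

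**Figure D2:**
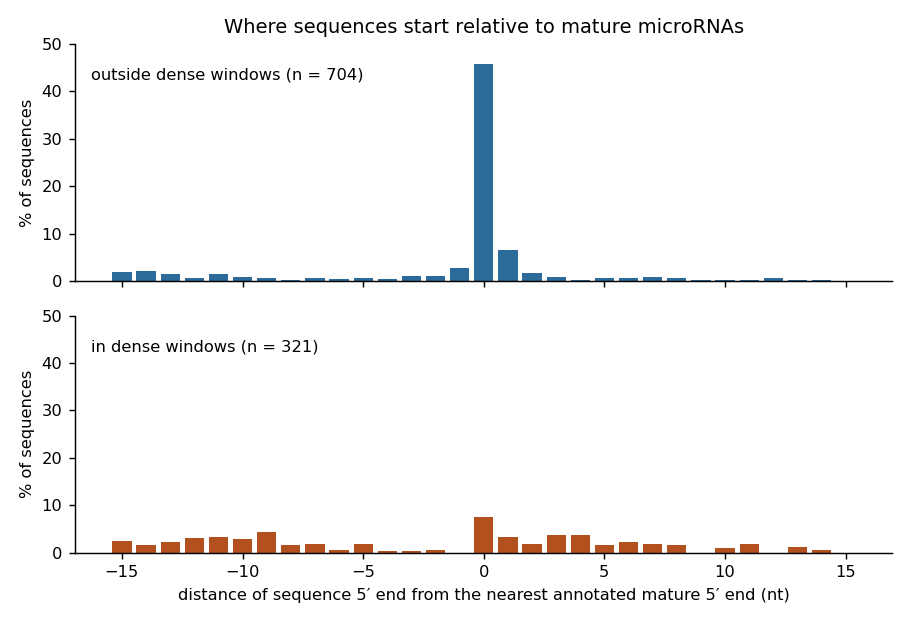
Share of sequences (y axis, %) by the distance of their 5′ end from the nearest annotated mature 5′ end (x axis, nt, from −15 to 15), for 704 sequences outside dense windows and 321 in them. Outside, 45.9% sit at 0; in dense windows the highest bar is also at 0, with 7.48%.

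Sequences at mature starts lay mostly on the 5p arm and ran past the annotated 3′ end. Of the 323 that began exactly at a mature start outside dense windows, 287 (88.9%, 84.9–92.1%) were 5p and 36 were 3p. By arm, 111 of 174 annotated 5p arms (63.8%, 56.2–70.9%) and 25 of 180 annotated 3p arms (13.9%, 9.19–19.8%) had such a sequence. Among 167 hairpins with both arms annotated, 102 had a sequence at the 5p start only, 15 at the 3p start only and 7 at both, whereas 43 had neither. Allowing sequences that run past the end of the annotated hairpin added 1 to the 36 on the 3p side and none on the 5p side. A hairpin ended 10 nt past the 3p mature end at the median.

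The median extension was longer on the 5p arm. Of the 287 5p sequences, 224 (78.0%, 72.8–82.7%) were longer than the mature microRNA, 37 had its length and 26 were shorter. Their median extension was 3 nt and their largest 8 nt. Of the 36 3p sequences, 24 were longer, 9 equal and 3 shorter, with a median of 1 nt and a largest extension of 5 nt. An extension of 3 nt or more was found in 155 of 287 (54.01%, 48.1–59.9%) on the 5p arm and in 5 of 36 (13.9%, 4.67–29.5%) on the 3p arm. On the 5p arm the bases past the mature end lie toward the loop of the hairpin. The gel elution was stated as about 28 to 30 nt, yet 37.1% of the whole list and 25.3% of hairpin sequences had such a length, and the part of elution in the extension was not tested. Each listed sequence has a single genome position, and sequences with several may be missing: of 32 sequences whose mature microRNA is found in more than 1 hairpin, all 32 were longer than it and 0 had its length. With mature sequences found in 1 hairpin only, the share that was longer was 74.2% (68.8–79.2%), against 76.8% (71.8–81.3%) over all 323.

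**Figure D3:**
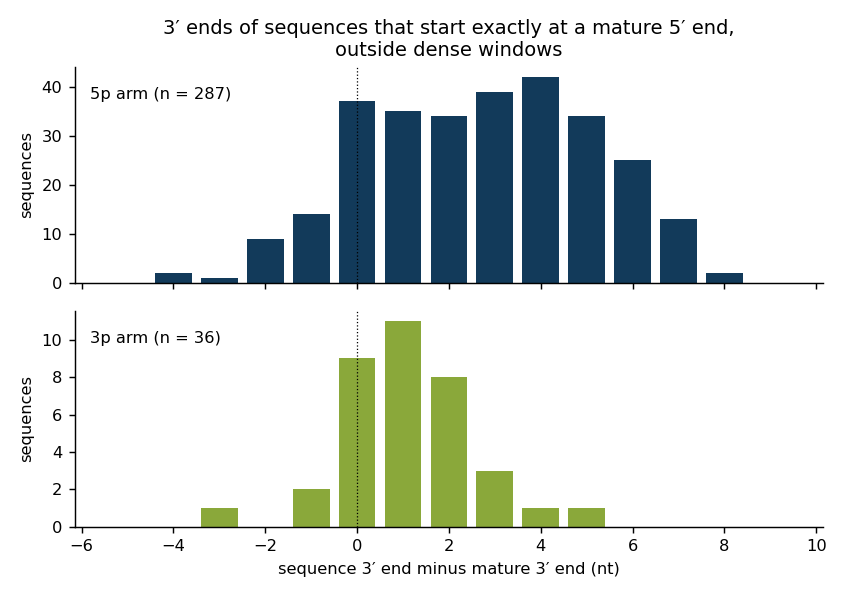
Number of sequences (y axis) by the position of their 3′ end relative to the mature 3′ end (x axis, nt), for 287 sequences on the 5p arm and 36 on the 3p arm that begin exactly at a mature 5′ end. The dotted line marks the mature 3′ end; 5p sequences reach 8 nt past it and 3p sequences 5 nt.

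The 323 sequences at exact starts came from 136 arms with 105 different seeds, so they were spread over many microRNAs and no family supplied most of them. The let-7 seed had the most, with 43 sequences at 10 arms. It was followed by the miR-17 seed with 17 at 4 arms, the miR-181 seed with 12 at 4 arms and the miR-30 seed with 9 at 2 arms. Together, seeds shared by several arms held 132 of the 323. Only placed arms entered these counts. Mir30d had no placed arm, so its 6 sequences, of 23 to 29 nt at a single 5′ end, were counted for no seed.

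The let-7 family, microRNAs that promote differentiation and are held down by Lin28 in undifferentiated cells, was represented throughout. All 11 of its annotated hairpins had sequences, 55 in total, with a median of 5 per hairpin. The median over all 2202 annotated hairpins was 0. Of the 55, 50 began within 2 nt of a placed mature start, 43 of them exactly, and 35 were 18 to 24 nt long. In Mirlet7a-2 only the 3p arm was placed. Its 4 sequences, all at a single 5′ end, therefore could not count as let-7a-5p starts. Mirlet7d (chromosome 13, 48631381–48631483, minus strand) had 8, all of 20 to 24 nt and none beginning with U. Of these, 5 began exactly at let-7d-5p, which begins with A, and 3 began 1 nt upstream. Mirlet7b had 6 sequences at a single 5′ end, from 20 to 25 nt. Mirlet7e had 5 of 20 to 24 nt, and Mirlet7i 4 of 20 to 23 nt, each at a single end. Mirlet7a-1, whose mature sequence is shared with Mirlet7a-2, had 5 at a single end, and its shortest was 24 nt.

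The Mir17-92 cluster and its paralogues, which favour proliferation, had sequences in 9 of 15 hairpins, with 37 sequences. Over all annotated hairpins the share with a sequence was 304 of 2202 (13.8%). Mir106b had 8, Mir93 7, Mir25 6 and Mir17 6, whereas Mir19a, Mir106a and Mir20b had 0. The first 3 are adjacent hairpins within Mcm7, which encodes a replication helicase subunit, on chromosome 5. All 6 sequences of Mir25 and all 7 of Mir93 also matched a transcript of Mcm7. Of the 37, 29 began within 2 nt of a mature start and 5 were 24 nt or shorter. Sequences with several genome positions may be missing from the list, so a 0 in this group need not mean absence.

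Hairpins of the X chromosome held 83 of the 919 sequences outside dense windows (9.03%, 7.26–11.1%) and 0 of the 340 in dense windows, against 1.75% for the whole list. Of the 2202 annotated hairpins, 142 (6.45%, 5.46–7.56%) are on X. A sequence was found in 27 of these (19.01%, 12.9–26.4%) and in 277 of 2060 on other chromosomes (13.4%, 12.002–14.996%), so the intervals overlapped. In the X-linked cluster of testis microRNAs 9 of 20 hairpins had 36 sequences. Mir465 (64092227–64092300, minus strand) had 13 at 5 ends, of which 4 began exactly at miR-465a-5p. Its near-identical copies Mir465b-1, Mir465b-2, Mir465c-1 and Mir465c-2 had 0, and sequences shared among such copies may be missing from a list of single positions. Mir470 (64067126–64067200, minus strand) had 7, of which 5 began exactly at miR-470-5p, from 21 to 27 nt. Mir223, known from myeloid cells, had 6, of which 5 began exactly at a mature start.

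The share of hairpins with a sequence differed among the other microRNA groups, and over all annotated hairpins it was 304 of 2202 (13.8%). Of microRNAs linked to meiotic cells and spermatids, Mir34c and Mir449c had 3 each and Mir34b 2, while Mir449a and Mir449b had 0. Of 9 annotated hairpins linked to spermatogonia, 7 had sequences, 18 in total, with a median of 2 per hairpin and the most, 7, in Mir21a. The pluripotency clusters had 3 sequences in 2 of 11 hairpins, a share near that of all annotated hairpins, with none at a mature start. Among 6 hairpins grouped here as somatic, not all of them known from testis cells, Mir202, of gonadal supporting cells, had 3 and Mir145a 1. In that group Mir143, Mir126a, Mir133a-1 and Mir122 had 0. Hairpins made without Drosha had 26 sequences in 4 of 5, with a median of 4. Mir320, with no mature sequence placed, had 11, Mir877 10, Mir702 4 and Mir1224 1, and Mir484 had 0.

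Short sequences lay mostly at mature starts. Outside dense windows, sequences of 18 to 24 nt made up 201 of 919 (21.9%, 19.2–24.7%), against 8 of 340 (2.35%, 1.02–4.58%) in dense windows and 1.44% in the whole list. Of sequences within 2 nt of a mature start, 164 of 407 (40.3%, 35.5–45.2%) were this short. Of those away from placed mature starts in the same group of hairpins, 16 of 297 (5.39%, 3.11–8.60%) were. These 16 include 2 of Mir185, 3 of Mir34c and 1 of Mirlet7a-2. In each of these hairpins only the 3p arm was placed and all sequences shared a single 5′ end. The mean length was 25.01 nt (SD 2.23 over sequences) at mature starts, 26.8 nt (SD 1.50) away from them and 26.97 nt (SD 1.39) in dense windows, against 27.1 nt (SD 1.31) in the whole list. Mir423 (chromosome 11, 76891566–76891674, minus strand) showed both forms: of 17 sequences 13 lay within 2 nt of a mature start, 8 of them 18 to 24 nt long, while its 3 sequences nearest to the 5′ side of the hairpin were 26 or 27 nt. Among the others with most short sequences at mature starts, Mir1839 had 7 of its 10, Mir181d 5 of 8, Mir140 5 of 6, Mir21a 4 of 7 and Mir191 4 of 6. Mir140 had 4 sequences exactly at its 3p start. All sequences of Mir1839, Mir140, Mir21a and Mir191 also matched a transcript of another gene, and none of Mir181d did. For Mir1839 these genes were a long noncoding RNA and a small Cajal body RNA.

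**Figure D4:**
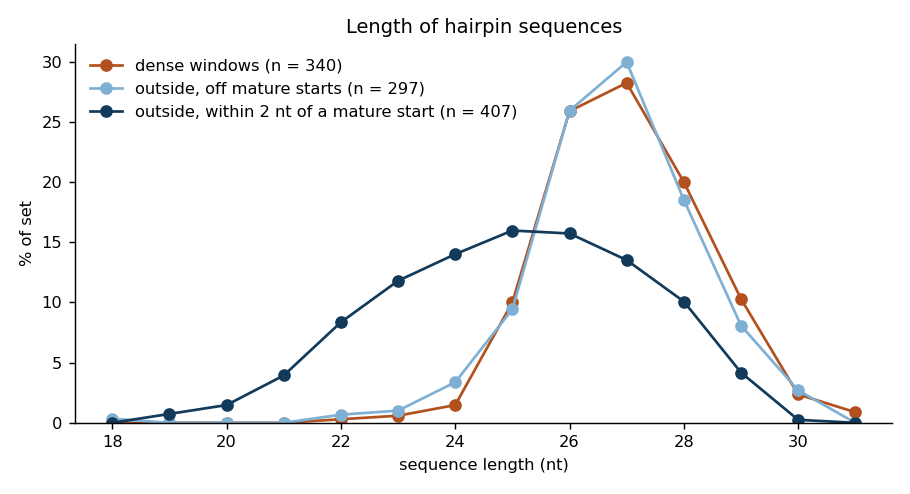
Share of each set (y axis, %) by sequence length (x axis, nt). The 407 sequences within 2 nt of a mature start outside dense windows are spread around 25 nt, whereas the 297 off such starts and the 340 in dense windows both have their mode at 27 nt.

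A 5′ U was less frequent in hairpin sequences than in the whole list, where 75.4% carried it. It was carried by 206 of 340 sequences in dense windows (60.6%, 55.2–65.8%) and by 503 of 919 outside (54.7%, 51.5–58.0%), intervals that overlapped. Outside, the share was 47.9% (43.0–52.9%) at mature starts and 63.0% (57.2–68.5%) away from them. The mature arms with a sequence at their exact start themselves began with U in 69 of 136 cases (50.7%, 42.03–59.4%). U made up 27.4% of the bases of the hairpins in dense windows and 25.2% of those outside. A at base 10 was carried by 26.2% (21.6–31.2%) in dense windows and 30.03% (27.1–33.1%) outside, against 31.7% in the whole list.

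Some hairpins outside dense windows resembled those inside, with spread ends and piRNA lengths. Gm47315 (chromosome 11, 104286470–104286614, minus strand) had 27 sequences at 18 ends, of 25 to 30 nt, and all 27 matched a coding exon of Kansl1, a chromatin complex gene. Gm25745 had 21, all matching the endoplasmic reticulum chaperone gene Hsp90b1, and 3 of them began with U. Mir8094 had 22, of which 20 matched the RNA helicase gene Ddx39b, Mir1191 had 14 in the 3′ UTR of BC024978, and Gm22133 had 13 in the ferritin gene Ftl1. The hairpins annotated in coding exons outside dense windows numbered 31 and held 187 sequences. Of the 71 of these with a placed mature microRNA, 21 (29.6%, 19.3–41.6%) lay at a mature start. In introns that share was 185 of 252 (73.4%, 67.5–78.8%) and in noncoding exons 90 of 108 (83.3%, 74.9–89.8%). Where no same-strand transcript of a gene of another type held the whole hairpin, it was 93 of 208 (44.7%, 37.8–51.7%). These last hairpins may still overlap a gene in part or on the other strand. Where transcripts differed, coding exons were taken first, then UTRs, noncoding exons and introns. A hairpin in an intron of some transcripts, as Mir93 and Mir25 in Mcm7, could thus count as in a noncoding exon. Of the 215 sequences in hairpins with no placed mature microRNA, 147 (68.4%, 61.7–74.5%) matched another gene.

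The annotated type also covered RNAs of other kinds. Mir1983 (chromosome 13, 21988787–21988918, minus strand) had 24 sequences at 13 ends, none at a mature start. Its sequence is known as that of an isoleucine transfer RNA, and its window held 32 sequences. Mir6236 (chromosome 9, 110183791–110183913, plus strand) had 18 sequences at 12 ends, none at its mature start, in a stretch known from 28S ribosomal RNA. The 2 kb on each side of Mir1983 and of Mir6236 held 0 ends on the same strand. Snord43, by name a small nucleolar RNA gene within Rpl3 and here typed as miRNA, had 5.

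In dense windows the excess of the hairpins over their surroundings was small and rested on Mir546 and on the width of the flanks. Counting every end inside a hairpin, also of sequences that run past it, they held 103.6 distinct 5′ ends per kb against 89.8 per kb in the 2 kb on each side on the same strand, a ratio of 1.15 (1.01–1.31). The ratio was 1.03 (0.890–1.18) without Mir546 and 1.06 (0.924–1.20) with flanks of 500 nt, and the medians over hairpins were 75.5 inside and 82.3 beside. In 17 of 31 hairpins the inside was denser than the flanks. Mir546 had 364 per kb inside and 150.3 beside, and Mir7216 105 inside and 255 beside. Outside dense windows the hairpins held 26.5 ends per kb and their flanks 6.83. That excess of 3.88 times (3.58–4.21) is partly fixed by the choice of hairpins, since each had to hold a sequence and 1 end in a hairpin of the median 84 nt is already 11.9 per kb. The flanks are part of the window that set the class, so their difference between classes is no finding. Outside dense windows they had a median of 2 ends per kb, and 32 of the 273 hairpins had 0 ends in them. They held 0.25 beside Mir465, 0.5 beside Mir470, 1.75 beside Mirlet7e and 3 beside Mir423, but 24.75 beside Gm47315, 57.5 beside Mir8094 and 63.5 beside Mir1191.

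**Figure D5:**
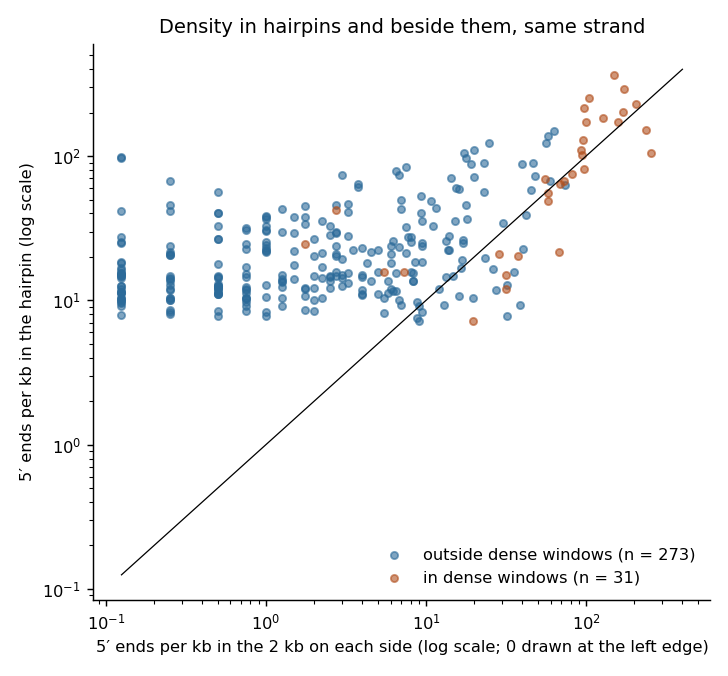
Distinct 5′ ends per kb in each hairpin (y axis, log scale) against the 2 kb on each side on the same strand (x axis, log scale, with 0 drawn at the left edge), with the line of equal density. Hairpins in dense windows lie around the line, 17 of 31 above it; most of those outside lie above it, where the lower edge of the points is set by a single end per hairpin.

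Antisense sequences were fewer than sense ones. There were 408 in 96 hairpins, and 149 of them lay in 26 hairpins that also had sense sequences. The fullest were Gm44344 with 46 antisense and 1 sense sequence and Gm44313 with 30 and 1. Among the antisense sequences, 59.8% (54.9–64.6%) began with U. They are not a set apart from the sense sequences, because hairpins can overlap on opposite strands. Gm24083 (minus strand), with 8 antisense sequences and 1 sense sequence, spans Mir191 (plus strand). The 6 sense sequences of Mir191 are thus antisense to Gm24083 and were counted in both sets. The sense sequence of Gm24083 likewise lies antisense to Mir191. The number counted in both sets was not determined. Within the 304 hairpins, 7 pairs of opposite 5′ ends overlapped by 10 nt, the overlap left by slicing, against a mean of 4.68 and a highest value of 8 for the other overlaps from 1 to 20 nt, so no excess was detectable at these numbers.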

How the data were processed

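The members, lists and named hairpins were chosen with earlier results of these data known. Each line of the deposited table gives a sequence with its place and strand in 5 columns; its numbers are positions, not counts, per the file headers. The genome build is mm9, per the submitters' processing notes; for aligner and filters the sources used here give nothing. All 4906138 sequences were distinct and had the length of their interval. Each was compared by exact whole match, in sense and antisense, with 2202 miRNA transcripts of GENCODE M21 (141767 transcripts), and matches with those of other genes. Hairpins were placed on mm9 by their own sequences, and all 304 had a single place. The position in a host gene comes from GENCODE alone, and no coordinate was converted. Mature sequences (RefSeq) of the same symbol were found in 245 hairpins and not in 59, and in some of the 245 a single arm was found. Dense windows are fixed 20 kb windows. Named hairpins are the 8 with most sequences in and 8 outside dense windows, those the selection rule names, the 10 with most sequences of 18 to 24 nt at mature starts, and members of 8 fixed lists; others were named after their values were seen. Matching was tested on sequences cut from the annotated hairpins and planted among random ones, which checks exact lookup only. No test between conditions was possible without libraries; alternatives covered windows, ends, copies and host genes. Intervals came from scipy 1.17.1, tables from pandas 2.3.3 with numpy 2.4.6 and plots from matplotlib 3.10.9, all under Python 3.11.15.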

Additional observations from a re-analysis of the deposited data

How the results depend on the processing

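No paired analysis was possible because the table has no libraries, and for the same reason no replicate could be left out. Of 49 alternatives over 16 results, 29 stayed within the counting interval of the value reported, or within 1.5 times for a count, and 20 did not. Counting distinct 5′ ends, with the longest sequence kept at each, gave 738 in place of 1259 sequences, 12.1% of sequences of 18 to 24 nt outside dense windows and 46.4% within 2 nt of a mature start, and 142 hairpins had at least 2 ends. Leaving out sequences that match another gene left 682 sequences, 20.8% of them in dense windows, with a 5′ U in 66.2% of those, and 25.7% of 18 to 24 nt outside. The share in dense windows, 27.01%, was 37.3% with a threshold of 500, 16.4% with 2000, 31.6% with 10 kb windows, 17.1% with 50 kb windows and 22.1% without Mir546. Without Mir546, 42.2% of all sequences and 45.6% of those in dense windows matched another gene. An exact start in place of 2 nt gave 45.9%, and sequences running past the hairpin lowered the share within 2 nt outside to 49.7%. In dense windows that share was 8.45% without Mir7210 in place of 13.4%. Flanks of 500 nt gave an inside to flank ratio of 1.89 over all hairpins (2.20 with 2 kb) and 3.05 outside dense windows. Keeping the longest sequence lowers the short share by construction; otherwise the cause was not tested. The own-strand window, the run past the hairpin, the copy count, leaving out Mir7210, and leaving out the fullest hairpin for the arm share (88.8%) and the longer share (77.6%) were chosen after seeing the data. With no read counts, the abundance of any microRNA cannot be given.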
